A study of Homo sapiens with 6 samples.

Results

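The 38 genes described here belong to the ATF4 branch of the integrated stress response (ISR) and to the unfolded protein response (UPR) of the endoplasmic reticulum (ER). They were taken from the deposited tables by gene name, from a list drawn up with earlier results of these data known, and each of the 38 names matched 1 row among the 57914 rows of the counts table. By role, 12 are ISR regulators and their outputs, 6 are enzymes of asparagine, serine and folate metabolism, 13 are ER chaperones and folding enzymes, 4 are UPR sensors with the factor XBP1, and 3 act in ER-associated degradation.

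RNA had been sequenced from A375 cells, an established human melanoma line, after staining with Aldefluor, a fluorescent stain for aldehyde dehydrogenase (ALDH) activity. Cells in the top 5% of the signal (ALDH_High) were sorted apart from those in the bottom 5% (ALDH_Low), with 3 libraries in each group, to compare gene expression at the extremes of ALDH activity. Every library came from the same unmodified line, grown in high-glucose medium with serum and L-glutamine and stained in the same way; no drug, ER stressor or genetic change is named in the labels. The labels number the libraries 1 to 3 but do not say whether these were separate cultures, so the p-values below measure only the spread between these libraries, which may be technical.

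In this pathway, kinases that sense stress phosphorylate the translation factor eIF2, which lowers protein synthesis while the mRNA of ATF4 is translated more. ATF4 then switches on genes for amino acid supply and the factors DDIT3 (CHOP), TRIB3 and ATF5. In the ER, unfolded protein activates the sensors PERK (gene EIF2AK3), IRE1 (gene ERN1) and ATF6; IRE1 splices the mRNA of XBP1 into its active form, and spliced XBP1 and cleaved ATF6 raise chaperones and degradation factors. Counts per gene show neither the translation of ATF4 nor the splicing of XBP1.

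Several members carry, just before an annotated RefSeq start, the short sequences by which ATF6, XBP1 and ATF4 are known to act. Promoter windows from RefSeq (GRCh38.p14, 250 bases before to 50 after a start) were found for 34 of the 38 members and searched on both strands. The ER stress element (ERSE, CCAAT and CCACG with 9 bases of any kind between them) was present for 7 of the 34 members (CALR, CANX, CRELD2, HSP90B1, HSPA5, PDIA6 and XBP1) and for 0.0916% of 27305 genes with a window. ERSE-II (ATTGG and CCACG with 1 base of any kind between them) was present for HERPUD1, HYOU1 and SDF2L1, and for 0.0696% of all genes. The UPR element (UPRE, TGACGTGG) was present for HYOU1 alone among the members and for 0.927% of all genes, and there it overlaps an ERSE-II on the other strand. The ATF4 element (CARE, TGATGNAA) was present for ASNS, CHAC1, FGF21 and HERPUD1, and for 4.46% of all genes. A match is a run of letters and not a measured binding site. The stretches below, on the strand of each gene, show an ERSE in 3 genes that were higher in ALDH_High and in HSPA5, which was not past the threshold. They also show the paired elements of HYOU1 (higher), those of HERPUD1 (lower), and the CARE of ASNS (not past the threshold). Members with a match that are not shown were not past the threshold: CALR, CANX and HSP90B1 (ERSE), SDF2L1 (ERSE-II) and CHAC1 (CARE). FGF21 (CARE), also not shown, was not tested. Capitals mark the matched elements, with the single free base of ERSE-II and CARE also in capitals and the free bases of ERSE in lower case. The stretches lie before a RefSeq start. For PDIA6, CRELD2 and ASNS the stretch is inside the GENCODE span of the gene, which begins further upstream. For the other genes shown, the stretch lies before that span.
PDIA6, chr2:10812841-10812885, minus strand: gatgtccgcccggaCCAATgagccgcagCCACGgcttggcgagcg
CRELD2, chr22:49918539-49918589, plus strand: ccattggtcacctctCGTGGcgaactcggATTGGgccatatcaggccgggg
XBP1, chr22:28800599-28800649, minus strand: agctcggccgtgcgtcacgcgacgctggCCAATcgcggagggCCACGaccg
HSPA5, chr9:125241384-125241433, minus strand: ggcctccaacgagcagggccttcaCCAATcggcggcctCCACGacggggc
HYOU1, chr11:119057265-119057405, minus strand: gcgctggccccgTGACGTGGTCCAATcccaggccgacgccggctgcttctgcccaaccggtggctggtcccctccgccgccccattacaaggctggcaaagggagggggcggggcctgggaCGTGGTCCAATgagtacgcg
HERPUD1, chr16:56931952-56932047, plus strand: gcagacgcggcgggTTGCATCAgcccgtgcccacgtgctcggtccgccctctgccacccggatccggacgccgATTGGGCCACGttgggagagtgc
ASNS, chr7:97872458-97872483, minus strand: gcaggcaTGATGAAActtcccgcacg

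Total counts per library lay between 26692868 and 37830603. In a principal component analysis the groups were split by component 1 (64.2% of the variance), while component 2 (14.5%) set ALDH_High library 1 (49.1) apart from the other ALDH_High libraries (-22.0 and -32.5). Of the melanocyte lineage markers, SOX10, S100B, MIA, MITF and PAX3 were present in every library, while the pigment genes MLANA and TYR had at most 3 counts. Of the 6 markers tested, SOX10, S100B and MIA were higher in ALDH_High, MITF was lower (log2 fold change -0.92, edgeR adjusted p 0.00667), and PAX3 (-0.22) and PMEL (-0.31) did not pass; the 10 markers summed to between 776 and 1090 CPM (counts scaled to 1000000 per library) in ALDH_High and between 272 and 313 CPM in ALDH_Low. Markers of white blood cells summed to at most 6.90 CPM, with at most 4 counts of PTPRC, and markers of epithelium to at most 16 CPM. Markers of endothelium summed to between 11.3 and 13.7 CPM in ALDH_High and between 2.07 and 2.74 CPM in ALDH_Low. Of these markers, KDR (log2 fold change 3.61) and LYZ (1.65) were higher in ALDH_High, and KRT5 (-3.63) and CD14 (-1.96) were lower. The others tested, KRT14 (0.58), PECAM1 (-0.77) and VWF (-0.19), did not pass. In ALDH_High most of the endothelial sum was KDR (9.70 to 13.0 CPM), and most of the epithelial sum was KRT14 (10.2 to 15.6 CPM). In ALDH_High, 12 of 20 genes of G2 and M phase were higher and 0 were lower (median log2 fold change 0.61), and 7 of 13 mitochondrially encoded genes were lower and 0 were higher (-0.63). Over all genes tested, 10.8% were higher and 9.83% were lower at an edgeR adjusted p below 0.05. Of 19 immediate early and heat shock genes, 2 were lower, DUSP1 (-1.42) and JUNB (-0.79), with a median of -0.27. Other immediate early genes, FOS (-0.74), FOSB (-1.04), JUN (-0.82), EGR1 (-0.81) and IER2 (-0.49), were below 0 but did not pass. IER3 (0.68) was above 0 and did not pass either. Of 16 hypoxia genes, 2 were higher and 4 were lower (-0.032); CA9 was at -2.80 and PFKFB4 at 1.26. The part of these differences in the results below was not tested, and in sorted bulk samples fewer cells of a kind and less RNA per cell cannot be told apart.

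The members divided by role. The ISR regulators that differed were mostly lower in ALDH_High, led by NUPR1 and STC2, whereas the chaperones, folding enzymes and UPR sensors that differed were all higher, led by EIF2AK3 and CRELD2. The mRNA of ATF4 itself and the 6 metabolic enzymes did not pass the test. Of the 37 members expressed highly enough to be tested, 15 passed the threshold of 0.05 on the edgeR p-value, adjusted by Benjamini-Hochberg over 17047 genes, where 20.6% of all genes tested did. Of the 15, 9 were higher, against 10.8% of all genes, and 6 were lower, against 9.83%. The groups did not overlap for 22 of the 37 members, against 37.8% of all genes. The median log2 fold change of the 37 was 0.13, and that of all genes tested was -0.013; it was 0.024 without ALDH_Low library 1. For a single gene, an exact two-sided permutation test of 3 against 3 libraries cannot go below p = 0.1, and it gave that value for the genes whose groups did not overlap.

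**Figure D1:**
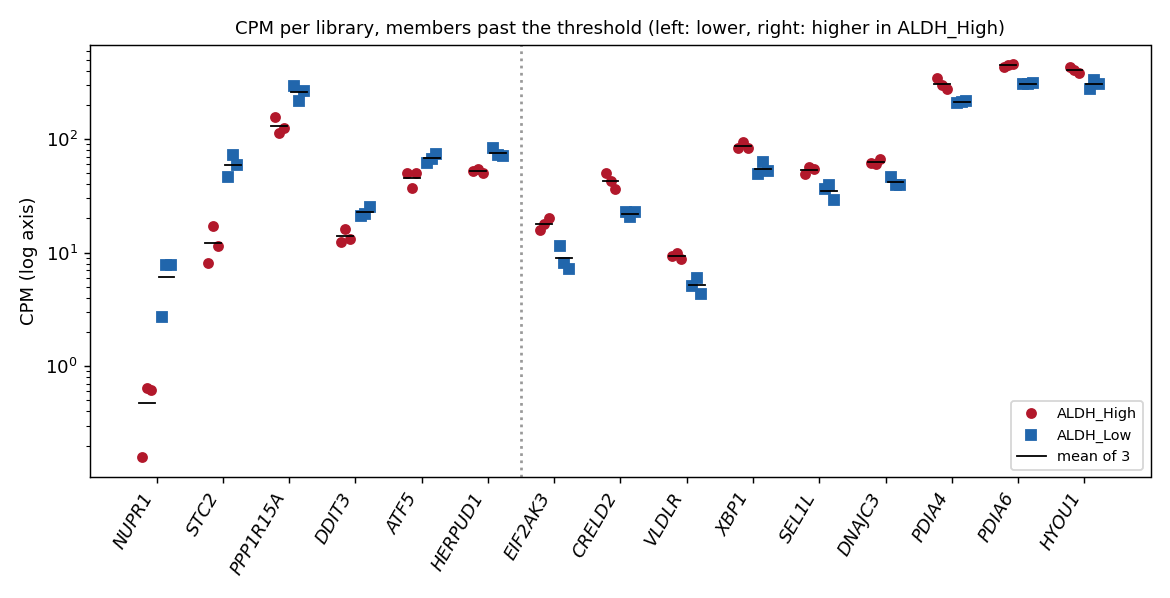
CPM on a log axis in each of the 6 libraries for the 15 members past the threshold, with red circles for ALDH_High, blue squares for ALDH_Low and a black line at the mean of 3. The 6 genes left of the dotted line were lower in ALDH_High and the 9 on the right were higher; the groups do not overlap for any of the 15, and the widest gap is that of NUPR1.

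Among the 12 ISR regulators and outputs, 5 were lower in ALDH_High (NUPR1, STC2, PPP1R15A, DDIT3 and ATF5), 1 was higher (VLDLR), 5 did not pass and FGF21 was not tested. The median log2 fold change of the 11 tested was -0.38. Their summed TPM (a level corrected for transcript length and scaled to 1000000 per library) was 743 ± 90.2 in ALDH_High and 906 ± 95 in ALDH_Low (SD, n = 3), with single libraries overlapping.

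ATF4, the transcription factor at the head of this response (ENSG00000128272, GRCh38 chromosome 22, 39519695 to 39522683), had 372, 401 and 441 CPM in ALDH_High libraries 1 to 3 and 364, 429 and 513 CPM in ALDH_Low libraries 1 to 3. The ranges overlapped, and the lowest value of each group was that of library 1. The log2 fold change of ATF4 was -0.10 (SE 0.14, edgeR adjusted p 0.66). At 407 TPM on average, ATF4 was the most abundant ISR regulator and the fourth of all 38 members by this length-corrected level.

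NUPR1, a small stress-induced nuclear protein (ENSG00000176046, chromosome 16, 28532708 to 28539008), had 0.158, 0.637 and 0.616 CPM in ALDH_High and 2.72, 7.76 and 7.80 CPM in ALDH_Low. Every ALDH_High library was below every ALDH_Low library, though ALDH_High library 1 rests on 4 counts. NUPR1 was 12.4-fold lower in ALDH_High (log2 fold change -3.64, SE 0.52, edgeR adjusted p 0.000877). When genes with fewer than 10 counts in any library were left out, NUPR1 was no longer among the genes tested.

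STC2, a secreted glycoprotein induced by ER stress and hypoxia (ENSG00000113739, chromosome 5, 173314723 to 173328447), had 8.12, 17.0 and 11.3 CPM in ALDH_High and 46.4, 71.8 and 59.0 CPM in ALDH_Low. The groups lay well apart. Other genes known to rise in hypoxia went both ways, as given above, and their part in the value of STC2 was not tested. STC2 was 4.83-fold lower (log2 fold change -2.27, SE 0.26, edgeR adjusted p 0.000197), and had the smallest p of all members.

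PPP1R15A (GADD34), which brings a phosphatase to eIF2 and so ends the response, had 158, 112 and 124 CPM in ALDH_High and 293, 215 and 264 CPM in ALDH_Low. It was 1.96-fold lower (log2 fold change -0.97, SE 0.16, edgeR adjusted p 0.00175), with no overlap between the groups. DDIT3 (CHOP), a transcription factor that promotes cell death under prolonged ER stress, had 12.4, 16.2 and 13.3 CPM against 20.9, 21.9 and 24.9 CPM. It was 1.61-fold lower (-0.69, SE 0.15, edgeR adjusted p 0.00902), again without overlap. PPP1R15A is also an immediate early gene, and its fall ran beside those of DUSP1 and JUNB given above; the part of that list in it was not tested. DDIT3 missed the threshold with limma on log2(TPM + 1) over all genes with a TPM above 0 (-0.63, adjusted p 0.0603).

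ATF5, a bZIP factor whose translation, like that of ATF4, rises under stress, had 50.6, 36.8 and 49.9 CPM in ALDH_High and 62.0, 66.4 and 74.4 CPM in ALDH_Low. The groups did not overlap, and the log2 fold change of ATF5 was -0.56 (SE 0.15, edgeR adjusted p 0.0206). The call was lost without ALDH_High library 2 (-0.41, adjusted p 0.0855), without ALDH_Low library 2 (-0.58, 0.0586), without ALDH_Low library 3 (-0.49, 0.0865) and with limma on log2(TPM + 1) over all genes (-0.51, 0.0857).

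VLDLR, a lipoprotein and reelin receptor listed as an ATF4 target, went the other way. It had 9.43, 9.84 and 8.77 CPM in ALDH_High and 5.08, 6.02 and 4.31 CPM in ALDH_Low. No library overlapped, and VLDLR was 1.82-fold higher (log2 fold change 0.86, SE 0.19, edgeR adjusted p 0.00957). With limma on log2(TPM + 1) over all genes VLDLR missed the threshold (0.64, adjusted p 0.115).

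Of the other members of this role, TRIB3, a pseudokinase that feeds back on ATF4, had 84.7, 80.1 and 81.1 CPM in ALDH_High and 89.7, 119 and 110 CPM in ALDH_Low. Its groups were apart, but TRIB3 missed the threshold (log2 fold change -0.38, SE 0.13, edgeR adjusted p 0.0589); it passed without ALDH_Low library 1 (-0.47, 0.0325) and with upper-quartile scaling (-0.43, 0.0341). TRIB3 lies on chromosome 20, whose 437 genes tested had a median log2 fold change of 0.25. DDIT4, an inhibitor of mTORC1 signalling, had a log2 fold change of -0.23 (edgeR adjusted p 0.442). SESN2, a leucine sensor, was at -0.046 (0.879), and CHAC1, which breaks down glutathione, was at 0.12 (0.871). FGF21, a secreted metabolic hormone, had 0 counts in all 3 ALDH_High libraries and at most 4 in ALDH_Low, and no fold is given.

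The 6 enzymes of amino acid and one-carbon supply gave no call, with 0 of 6 past the threshold and 0 of 6 with groups apart, where 20.6% and 37.8% of all genes tested were; with 6 genes a count of 0 is read no further. Their log2 fold changes lay between -0.11 and 0.13, with a median of -0.022. They are PHGDH, PSAT1 and PSPH, which make serine from a glycolytic intermediate; SHMT2 and MTHFD2, which pass its carbon into mitochondrial folate; and ASNS, which makes asparagine. PHGDH was at 0.13 (SE 0.14, edgeR adjusted p 0.561), MTHFD2 at 0.11 (SE 0.18, 0.737), SHMT2 at -0.015 (SE 0.13, 0.952), PSAT1 at -0.029 (SE 0.18, 0.936), ASNS at -0.11 (SE 0.24, 0.799) and PSPH at -0.11 (SE 0.15, 0.667). Their levels were high, from 34.1 TPM for PSPH to 272 TPM for PHGDH over all 6 libraries.

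Within each group, several of these genes had their lowest value in library 1, and an effect of the library number was not tested. PHGDH, SHMT2 and PSPH were instead highest in library 1 of ALDH_High and lowest in library 1 of ALDH_Low. ASNS had 68.1, 117 and 127 CPM in ALDH_High libraries 1 to 3 and 82.0, 125 and 130 CPM in ALDH_Low libraries 1 to 3. CHAC1 had 4.10, 13.3 and 10.6 CPM in ALDH_High and 5.47, 11.1 and 9.49 CPM in ALDH_Low. In both genes library 1 was the low one in each group. Library 1 was the lowest of both groups for 10 of the 37 members (ATF4, DDIT3, NUPR1, DDIT4, CHAC1, STC2, ASNS, PSAT1, MTHFD2 and XBP1), and for 13.8% of all genes tested. Libraries 2 and 3 each held that place for 3 members, against 10.8% and 11.3% of all genes. The labels give no date or batch to set beside this. With the replicate number as a term, the log2 fold change of ASNS was -0.13 (edgeR adjusted p 0.487) and that of CHAC1 was 0.023 (0.951).

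**Figure D2:**
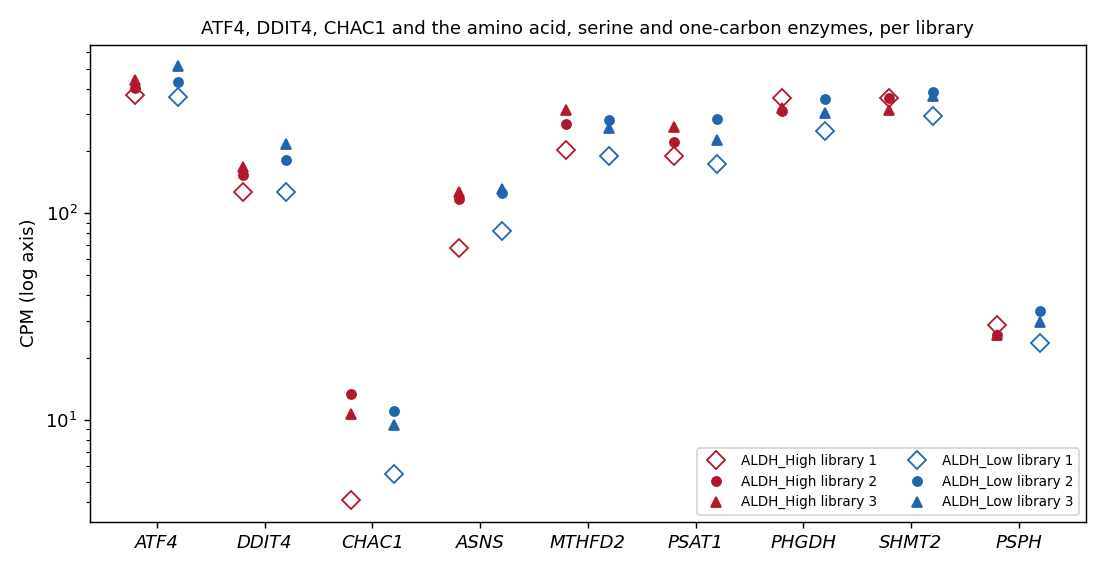
CPM on a log axis for ATF4, DDIT4, CHAC1 and the 6 metabolic enzymes, 1 symbol per library, with red for ALDH_High, blue for ALDH_Low and open diamonds for library 1. The colours overlap for each of the 9 genes, and the open diamonds are the lowest symbols of both groups for ATF4, DDIT4, CHAC1, ASNS, MTHFD2 and PSAT1 but not for PHGDH, SHMT2 and PSPH.

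Of the 13 ER chaperones and folding enzymes, 5 were higher in ALDH_High (CRELD2, DNAJC3, PDIA4, PDIA6 and HYOU1), 0 were lower and 8 did not pass. The log2 fold change was above 0 in 12 of the 13, against 8280 of all 17047 genes tested, and the median was 0.35. The groups were apart for 9, against 37.8% of all genes. The summed level of the 13 was 3240, 3616 and 3510 TPM in ALDH_High and 2797, 2759 and 2734 TPM in ALDH_Low, so that every ALDH_High library was above every ALDH_Low library. This role made up 63.4% of the summed TPM of all members in ALDH_High and 57.1% in ALDH_Low.

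CRELD2, an ER-resident folding factor induced by ATF6 (ENSG00000184164, chromosome 22, 49918167 to 49927540), had 49.7, 42.3 and 36.5 CPM in ALDH_High and 22.6, 20.6 and 22.8 CPM in ALDH_Low. The ALDH_Low libraries were close together and all below the ALDH_High ones. CRELD2 was 1.94-fold higher (log2 fold change 0.96, SE 0.14, edgeR adjusted p 0.000914). Its promoter stretch, printed above, holds an ERSE on the opposite strand.

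The protein disulfide isomerases PDIA4 and PDIA6, which form and shuffle the disulfide bonds of new proteins, were higher by like amounts. PDIA6 had 432, 450 and 454 CPM against 305, 304 and 313 CPM in ALDH_Low, a difference of 0.54 on the log2 scale (SE 0.10, edgeR adjusted p 0.00310). PDIA4 had 346, 299 and 276 CPM against 209, 210 and 215 CPM (0.54, SE 0.11, edgeR adjusted p 0.00725). Neither gene showed overlap between the groups. The third member of this family, PDIA3, which works with calreticulin and calnexin on glycoproteins, had a log2 fold change of 0.25 (SE 0.11, edgeR adjusted p 0.156), with its groups apart.

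DNAJC3 (p58IPK), a co-chaperone that also restrains PERK, had 61.2, 60.5 and 66.2 CPM in ALDH_High and 46.5, 39.1 and 39.6 CPM in ALDH_Low. It was higher without overlap (log2 fold change 0.58, SE 0.12, edgeR adjusted p 0.00562). DNAJC3 lies on chromosome 13, whose 310 genes tested had a median log2 fold change of 0.33, and the part of that shift in its value was not tested. HYOU1, the nucleotide exchange factor of BiP, had 434, 406 and 379 CPM in ALDH_High and 278, 329 and 307 CPM in ALDH_Low (0.42, SE 0.11, edgeR adjusted p 0.0238). The HYOU1 call was lost without ALDH_High library 2 (adjusted p 0.0692), ALDH_Low library 1 (0.0819) or ALDH_Low library 3 (0.0693), with log2 fold changes of 0.43, 0.37 and 0.42.

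The most abundant chaperones did not pass. HSPA5 (BiP), the main ER chaperone, which holds the sensors inactive (ENSG00000044574, chromosome 9, 125234853 to 125241382), had 1045, 1089 and 981 CPM in ALDH_High and 1061, 809 and 891 CPM in ALDH_Low. ALDH_Low library 1 was as high as the ALDH_High libraries. The log2 fold change of HSPA5 was 0.17 (SE 0.12, edgeR adjusted p 0.373). HSP90B1 (GRP94) was at 0.32 (SE 0.14, 0.134) and passed without ALDH_High library 1 (0.46, 0.0136). CALR and CANX, the lectin chaperones calreticulin and calnexin, were at 0.14 (SE 0.10, 0.380) and 0.15 (SE 0.11, 0.377). On the length-corrected scale CALR was the most abundant of the 38 members, at 849 TPM, followed by HSP90B1 at 440 TPM and PDIA3 at 422 TPM.

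SDF2L1, a partner of BiP, and MANF, a small ER protein that binds BiP, were near the threshold at log2 fold changes of 0.47 (SE 0.15, edgeR adjusted p 0.0554) and 0.35 (SE 0.13, 0.0828), each with groups apart. SDF2L1 passed with DESeq2 (0.49, 0.0288), limma for a mean of 1 TPM or more, on log2(TPM + 1) (0.50, 0.0264) or log2(TPM + 0.1) (0.51, 0.0272), no filter on low counts (0.48, 0.0372), and without ALDH_High library 3 (0.57, 0.0499). MANF passed with the same limma fits (0.39, 0.0278 and 0.39, 0.0291) and without ALDH_High library 3 (0.47, 0.0332). DNAJB9 (ERdj4), which returns BiP to IRE1, was the member of this role with a log2 fold change below 0 (-0.14, SE 0.18, edgeR adjusted p 0.654).

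Among the UPR sensors and XBP1, 2 of 4 were higher in ALDH_High and 0 were lower. EIF2AK3, which encodes PERK, the ER kinase of eIF2 (ENSG00000172071, chromosome 2, 88556741 to 88691518), had 15.7, 17.9 and 20 CPM in ALDH_High and 11.4, 8.13 and 7.12 CPM in ALDH_Low. All ALDH_High libraries were above all ALDH_Low libraries, and EIF2AK3 was 2.00-fold higher (log2 fold change 1.0, SE 0.20, edgeR adjusted p 0.00528). XBP1 (ENSG00000100219, chromosome 22, 28794555 to 28800597) had 82.7, 94.4 and 83.3 CPM in ALDH_High and 49.6, 62.4 and 52.5 CPM in ALDH_Low. The groups were again apart, and XBP1 was 1.58-fold higher (0.66, SE 0.12, edgeR adjusted p 0.00397). ATF6 was at 0.17 (SE 0.10, 0.302) and ERN1, which encodes IRE1, at -0.18 (SE 0.23, 0.635). Per length, ERN1 and EIF2AK3 were among the least abundant members, at 2.74 and 5.27 TPM. EIF2AK3 missed the threshold with limma on log2(TPM + 1) over all genes (0.89, adjusted p 0.0711).

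The 3 members of ER-associated degradation, which sends misfolded proteins from the ER to the proteasome, went in different directions. SEL1L, the adaptor of the ubiquitin ligase HRD1, had 49.1, 56.4 and 54.0 CPM in ALDH_High and 36.1, 39.6 and 29.2 CPM in ALDH_Low. SEL1L was 1.52-fold higher without overlap (log2 fold change 0.60, SE 0.14, edgeR adjusted p 0.0110). HERPUD1, a membrane protein of the same complex, had 52.3, 54.7 and 50.1 CPM in ALDH_High and 83.3, 71.7 and 71.2 CPM in ALDH_Low. HERPUD1 was 1.44-fold lower, also without overlap (-0.53, SE 0.11, edgeR adjusted p 0.00810). HERPUD1 was the member outside the ISR role that was lower. It was also the member whose promoter held both an ERSE-II and a CARE, but a link between these elements and its direction was not tested. ASNS and CHAC1, which also carry a CARE, did not pass. EDEM1, a lectin that picks out misfolded glycoproteins, was at 0.31 (SE 0.11, 0.0825) with its groups apart. With limma on log2(TPM + 1) over all genes, HERPUD1 (-0.47, adjusted p 0.0588) and SEL1L (0.60, 0.103) missed the threshold, and SEL1L missed it narrowly for a mean TPM of at least 1 (0.0502).

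**Figure D3:**
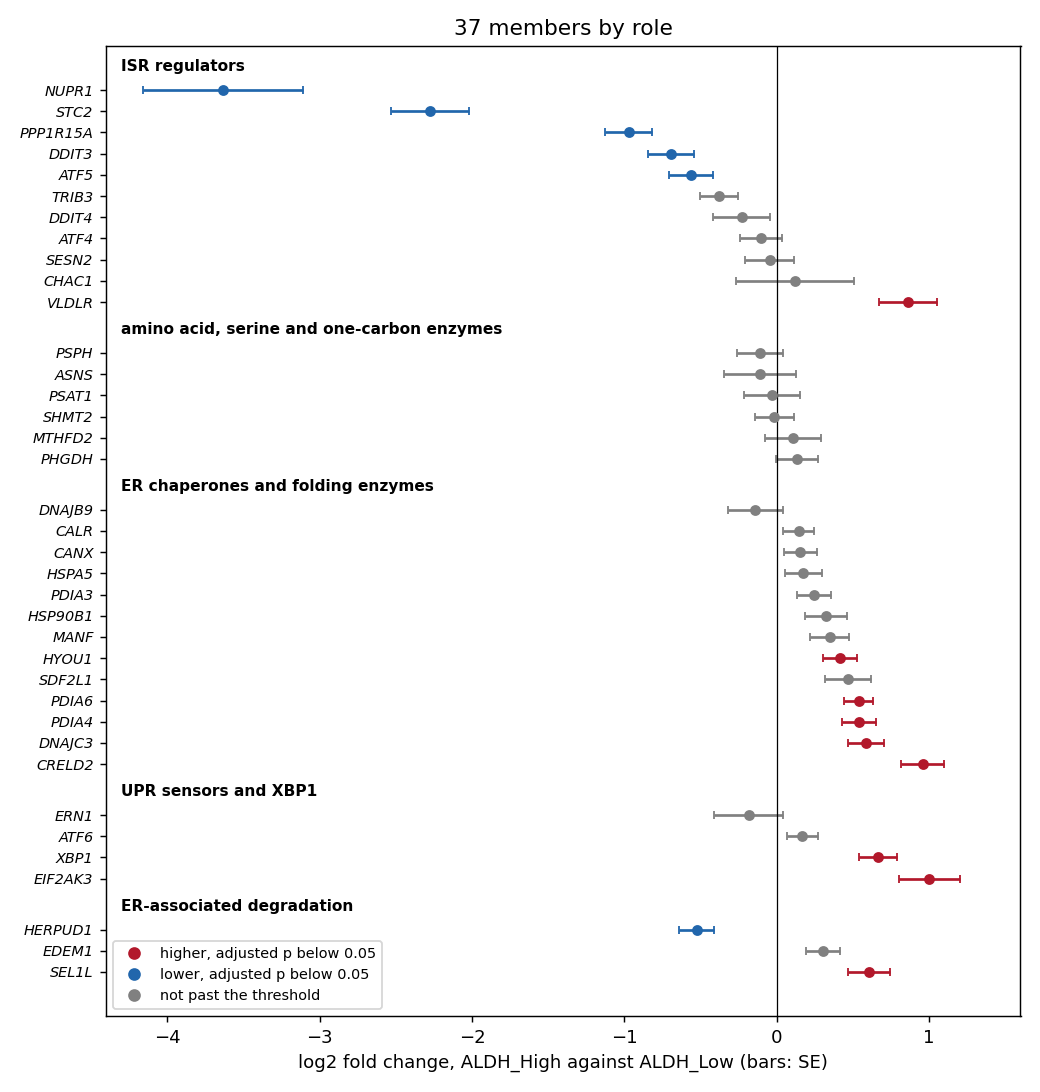
Log2 fold change of ALDH_High against ALDH_Low for the 37 members tested, in 5 blocks by role, with bars for the SE; red marks genes higher and blue genes lower at an adjusted p below 0.05, and grey the rest. The ISR block reaches down to NUPR1 at -3.64, the metabolic enzymes lie around 0, and 12 of the 13 chaperones and folding enzymes lie to the right of 0.

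A further 105 genes of the same pathways, listed in 6 groups, gave 18 calls among 104 tested (17.3%, against 20.6% of all genes), of which 9 were higher and 9 lower. At the same threshold, 10.8% of all genes tested were higher and 9.83% were lower. Among the 12 bZIP partners and other stress regulators, 4 were lower and 0 were higher, with a median log2 fold change of -0.18. ATF3, a bZIP factor induced by ATF4 and by immediate early signals, had 22.2, 15.1 and 23.5 CPM in ALDH_High and 132.6, 43.7 and 92.3 CPM in ALDH_Low (-2.15, SE 0.34, edgeR adjusted p 0.00161; 0.0518 with limma on log2(TPM + 1) over all genes). GADD45B and GADD45A, which restrain growth after damage, were at -1.19 (SE 0.14, edgeR adjusted p 0.000253) and -0.66 (SE 0.12, 0.00290).

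Of the 25 other genes of ER translocation and folding, 20 were above 0, against 8280 of all 17047 genes tested. Their median was 0.18, with 5 higher and 0 lower in ALDH_High. This share of calls was close to that of all genes tested (20.6%), though all 5 went in 1 direction. ERO1B, an oxidase that recharges the disulfide isomerases, had 16.6, 22.3 and 28.8 CPM in ALDH_High and 7.57, 6.22 and 7.08 CPM in ALDH_Low, a 3.24-fold difference (log2 fold change 1.70, SE 0.21, edgeR adjusted p 0.000321). P4HB, the disulfide isomerase PDI, was at 1103 ± 122 and 711 ± 37.8 CPM (SD, n = 3; 0.63, SE 0.11, edgeR adjusted p 0.00325). FKBP14, a prolyl isomerase of the ER, was at 0.60 (SE 0.14, 0.0145), and was not past the threshold without ALDH_High library 2 (0.0685), without ALDH_Low library 3 (0.0597) or with limma on log2(TPM + 1) (0.0504).

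Of the 21 other degradation and UPR signalling genes tested, 1 was higher and 1 was lower, and they belong to the same family of membrane-bound transcription factors. CREB3L2 was at 82.6 ± 2.68 CPM in ALDH_High and 51.4 ± 7.94 CPM in the other group, with a log2 fold change of 0.68 (SE 0.13, edgeR adjusted p 0.00453). CREB3L1 was at 0.716 ± 0.0880 and 3.64 ± 0.873 CPM (-2.35, SE 0.30, edgeR adjusted p 0.000419; all SD, n = 3). CREB3L2 missed the threshold with limma on log2(TPM + 1) over all genes (0.0570).

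Of the 20 genes of ATF4-linked amino acid transport and synthesis, 2 were higher and 3 were lower, with a median of 0.0038. SLC1A4, a transporter of serine and alanine, was at 79.2 ± 6.76 CPM against 36.1 ± 10.2 CPM (SD, n = 3), which is 1.14 on the log2 scale (SE 0.20, edgeR adjusted p 0.00247). SLC1A5, the related glutamine transporter, was at -0.50 (SE 0.14, 0.0292). PYCR1, an enzyme of proline synthesis, was at 0.41 (SE 0.13, 0.0472), and BCAT1, which transfers the amino group of branched-chain amino acids, was at -0.63 (SE 0.15, 0.0149). With each of the 6 libraries left out in turn, SLC1A5 passed in 2 fits and PYCR1 in 1. Those without the call were, for SLC1A5, the fits without ALDH_High library 2 (-0.49, adjusted p 0.0933) or 3 (-0.47, 0.0903) and without ALDH_Low library 2 (-0.37, 0.122) or 3 (-0.48, 0.0926). For PYCR1 they were those without ALDH_High library 2 (0.38, 0.139) or 3 (0.45, 0.0725) and without ALDH_Low library 1 (0.31, 0.148), 2 (0.49, 0.0596) or 3 (0.45, 0.0878). BCAT1 missed it without ALDH_Low library 2 (-0.52, 0.0689). In limma on log2(TPM + 1) over all genes, SLC1A5 (-0.43, 0.181), PYCR1 (0.46, 0.0967) and BCAT1 (-0.56, 0.187) all missed the threshold, and PYCR1 also missed it with upper-quartile scaling (0.36, 0.0723). In limma for a mean TPM of at least 1, SLC1A5 missed it on log2(TPM + 1) (adjusted p 0.0871) and log2(TPM + 0.1) (0.087). BCAT1 missed it in the same fits (adjusted p 0.093 and 0.0925), and PYCR1 kept its call there.

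Of the 13 aminoacyl-tRNA synthetases, which load amino acids onto tRNAs, 10 were below 0, against 8767 of all 17047 genes tested. Their median was -0.17, and 1 was lower and 0 were higher. The 1 was NARS1 (log2 fold change -0.70, SE 0.18, edgeR adjusted p 0.0188), on chromosome 18, whose 262 genes tested had a median of -0.33; it missed the threshold without ALDH_Low library 2 (0.0810) or 3 (0.0652) and with limma on log2(TPM + 1) (0.0942). The list of eIF2 kinases, eIF2 and eIF2B held 13 genes, with EIF2A and PPP1R15B counted in, and had a median of -0.026. Of the 13, 1 was higher and 0 were lower. It was EIF2AK4, which encodes GCN2, the eIF2 kinase that senses amino acid shortage (0.53, SE 0.13, edgeR adjusted p 0.0137; 0.0536 without ALDH_Low library 1, 0.0600 without ALDH_Low library 2, and 0.0914 in limma over all genes). EIF2AK4 and the member EIF2AK3 were the 2 eIF2 kinase genes that were higher in ALDH_High. The others, EIF2AK1 (-0.12, edgeR adjusted p 0.491) and EIF2AK2 (-0.17, 0.422), were below 0 and did not pass.

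**Figure D4:**
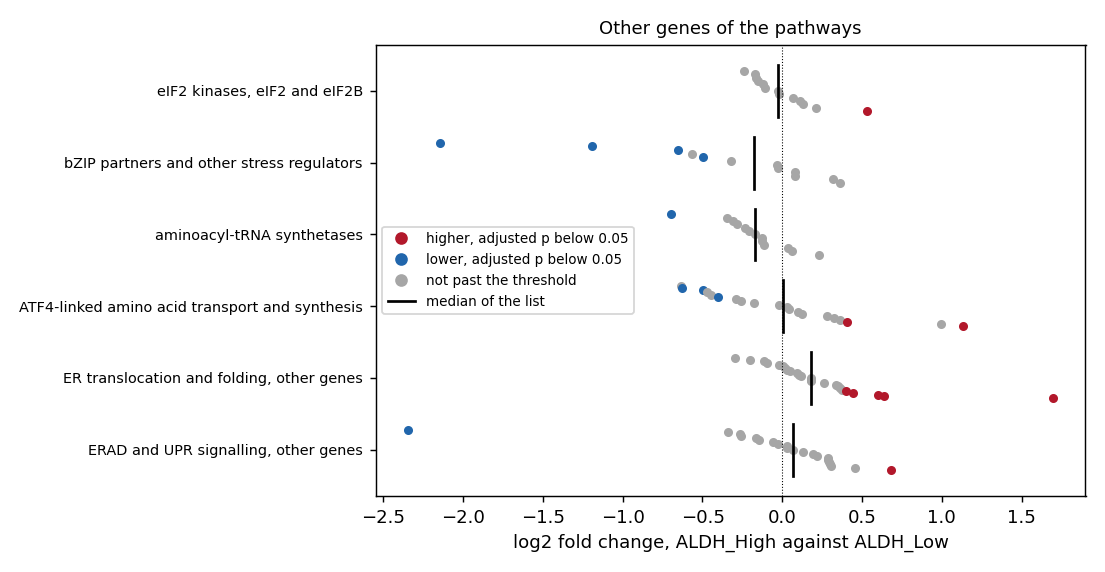
Log2 fold change of ALDH_High against ALDH_Low for the 104 other pathway genes tested, in 6 lists, with red for higher and blue for lower at an adjusted p below 0.05, grey for the rest and a black line at each list's median. Calls in the bZIP list lie to the left of 0, led by ATF3, and calls in the ER translocation and folding list lie to the right, led by ERO1B.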

How the data were processed

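Libraries of stranded mRNA (TruSeq, per the labels' protocols) were sequenced for ALDH_High (3) and ALDH_Low (3). The authors deposited whole-number counts per gene, which were treated here as rounded estimated counts, since in each library between 133 and 177 genes with a TPM above 0 have a count of 0; HTSeq, which the notes name, gives whole counts, so how they were made is not settled. The authors also deposited TPM, which sum to 1000000 per library. The submitters' processing notes name FastQC 0.11.3, STAR 2.5.1b, HTSeq 0.6.1, DESeq2 and GRCh38; the annotation release is not given in the sources used here. The design had assumed plain counts and the same test was kept. Rows without a gene name (261, at most 0.0267% of the counts) stayed in.

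Genes were filtered with filterByExpr and counts scaled with TMM; the two-sided test was edgeR's glmQLFTest after glmQLFit without a block (version 4.0.16) on R 4.3.3, and the script was tested on simulated data. SE comes from dividing the log2 fold change by the root of F. CPM use TMM-scaled library sizes. Alternatives were other scalings and filters, leaving out each library, a block for the replicate number, DESeq2 1.42.0, and limma 3.58.1 on log2(TPM + 1) and log2(TPM + 0.1). Positions are from GENCODE 44. Rows of pseudogene copies of members held at most 1.13% of the member's count. Members and lists were chosen with earlier results of these data known. Named were the members past the threshold (up to 16), ATF4, DDIT3, HSPA5 and XBP1, and in each other list up to 3 genes per direction with the smallest p and at least 1 CPM; other genes and values named were chosen after they were seen. 1 gene that the rule names is counted in its list but not reported here. Reads carry no molecular identifiers, so a count is not a number of molecules.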

Additional observations from a re-analysis of the deposited data

How the results depend on the processing

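Over 15 alternatives the members past the threshold numbered from 6 to 11 higher and from 3 to 7 lower; leaving out each library in turn gave 8 to 11 higher, 5 to 7 lower and a median log2 fold change from 0.024 to 0.21. Only limma on log2(TPM + 1) over all genes with a TPM above 0 moved a count of members by more than 1.5 times (3 lower). The other pathway genes gave 5 higher and 4 lower in that fit, 14 higher and 5 lower in limma on log2(TPM + 0.1), 5 lower in limma on log2(TPM + 1) for a mean TPM of at least 1, 14 higher without a low-count filter, and from 5 to 12 higher and 4 to 11 lower with a library left out; fewer samples or more genes tested are part of how some of these fits are built, and beyond that the cause was not tested. With the replicate number as a block, 10 members were higher and 6 lower: SDF2L1 passed (0.46, adjusted p 0.0358), and no other member changed its call. Deviations from the group mean correlated at 0.15, 0.076 and 0.108 between libraries of the same number. Between libraries of different numbers the values ran from -0.103 to 0.023. Not every same-number value exceeded 0.1, and the main fit assumed no pairing. Whether libraries of the same number were matched is not settled by these values. Of 779 values of single genes under an alternative, 28 changed sign, and in no case was that gene past the threshold. With a library left out, log2 fold changes ran from -0.20 to 0.030 for ATF4, -0.17 to 0.054 for SESN2, -0.21 to 0.49 for CHAC1, -0.28 to 0.14 for ASNS, -0.18 to 0.17 for PSAT1, -0.23 to 0.011 for PSPH, -0.11 to 0.062 for SHMT2, -0.029 to 0.28 for MTHFD2 and -0.41 to 0.0084 for ERN1. Of members not past the threshold that kept their sign, 5 moved by more than 1.5 times: DDIT4 (-0.40 to -0.047), PHGDH (0.024 to 0.26), DNAJB9 (-0.23 to -0.037), HSPA5 (0.089 to 0.30) and CANX (0.082 to 0.21); the median of the 6 metabolic enzymes ran from -0.15 to 0.11. In limma on log2(TPM + 0.1), log2(TPM + 1) and log2(TPM + 1) over all genes they were 0.014, 0.012 and 0.012 for SESN2, 0.038, 0.037 and 0.037 for PSAT1, and 0.042, 0.042 and 0.042 for SHMT2, which was at 0.0048 in DESeq2. The log2 fold changes reported for these 9 genes lie within 1 SE of 0, and the cause was not tested. NUPR1 has no value where 10 counts were required in every library.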
